A study of Mus musculus with 4 samples.

Results

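A pair of dense intervals on mouse chromosome 15 (mm9) was described among small RNAs bound to MILI, and each turned out to be part of a longer stretch in which the strand of the sequences changes. Interval 1 runs from 74200001 to 74260000 and interval 2 from 74460001 to 74480000, with 200 kb between them. The members were all listed sequences whose 5′ end lies in either interval. They number 9842 of the 4906138 listed sequences (0.201%), with 5970 in interval 1 and 3872 in interval 2. The intervals were chosen by their number of listed sequences, so their sequence counts are given as a description and with no test.

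MILI (Piwil2) is a PIWI protein of male germ cells, and TDRD9 is a putative RNA helicase of the piRNA pathway. The study used C57BL/6 testes collected at 14 days post partum (dpp) and made 4 libraries of MILI-bound RNA, 2 from Tdrd9+/- mice, which keep 1 functional allele, and 2 from Tdrd9-/- mice. Per the labels, a gel step selected RNAs near 28 to 30 nt, so the length of the sequences was partly set beforehand. The deposited table pools the 4 libraries into 1 list of distinct sequences with positions. It has no read counts and no library column, so depth per library is unknown, the genotypes could not be compared, and a rare sequence counts as much as an abundant one.

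piRNAs are cut from long single-stranded precursor transcripts, and many precursors come from genomic clusters that encode no protein. Some clusters are transcribed from 1 strand, and others are divergent, with precursors leading away from a shared region in both directions. Primary piRNAs usually begin with U. Slicing by a PIWI protein leaves a partner on the opposite strand whose first 10 nt pair with the first 10 nt of the guide, so partners of a 5′ U carry A at position 10. In the testis, a pre-pachytene set of piRNAs is told apart from a pachytene set that is made once spermatocytes enter pachytene.

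The fullest 5′ ends of each interval are printed here, each a fixed 5′ end with a run of 3′ ends behind it. They are extremes: 61.2% of ends in interval 1 and 50.9% in interval 2 held a single sequence. Only 6.46% and 15.7% held 4 or more. The longest sequence at each end of at most 30 nt is given 5′ to 3′ with U in place of the deposited T, and the capitals mark positions 1 and 10.
Interval 1, chr15:74249157-74249186, minus strand, 8 sequences at the end: UggucaagaUuucugagaaccggcugguuu
Interval 1, chr15:74200580-74200609, minus strand, 7 sequences at the end: UcagaacucUguccagccagggaauuaaau
Interval 1, chr15:74200871-74200899, minus strand, 7 sequences at the end: UgacgacagAgcaggaaccuuccgguaag
Interval 2, chr15:74467611-74467639, plus strand, 9 sequences at the end: UccugaugaAcaaguuugacucuccauga
Interval 2, chr15:74467637-74467665, plus strand, 7 sequences at the end: UgaguugagAuagacaaaagcuggcaggu
Interval 2, chr15:74468199-74468227, plus strand, 7 sequences at the end: UaagaaaagUaguaggcagcaaagggcgc

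All 6 begin with U, and 3 of the 6 have A at position 10. Fuller ends began with U more often. With 4 or more sequences the shares were 94.9% in interval 1 and 90.0% in interval 2, against 69.7% and 62.7% of all ends. The fullest end of interval 1 held sequences of 19, 24, 25, 26, 27, 28, 29 and 30 nt, and the fullest end of interval 2 held sequences of 20 nt and of every length from 22 to 29 nt. Other ends with 4 or more sequences had a similar layout, which is partly built in. Listed sequences at 1 end differ in length, so 4 of them span at least 3 nt. Of the 234 ends of interval 1 with 4 or more sequences, 189 (80.8%) had no length missing between their shortest and their longest sequence, and in interval 2 this held for 233 of 300 (77.7%). The span from the shortest to the longest sequence at such an end had a median of 3 nt in interval 1 and 4 nt in interval 2, with a range of 3 to 11 nt in both. The same shares were not computed for the whole list, so they are not read as a trait of these intervals.

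Interval 1 carried sequences on the minus strand. Of its 5970 sequences, 5969 lay on the minus strand and 1 on the plus strand, a plus share of 0.0168% (exact Clopper-Pearson 95% interval, 0.000424–0.0933%). The intervals of shares given here cover counting error over listed sequences or ends only. The 20-kb windows of interval 1 held, from left to right, 2753, 1933 and 1284 sequences. These windows were members because each reached 1000 sequences. Sequences per window thus fell from left to right inside the interval. The windows just outside held 480 on the left and 399 on the right, and values below 1000 there follow from the rule. Density did not drop at the left edge itself. The kilobases just outside it held 231 and 220 minus-strand sequences, and those just inside held 270 and 236.

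The left edge of this stretch was abrupt. The kilobase from 74198001 to 74199000, just outside the interval, held 231 minus-strand sequences, the lowest of them at 74198355, and each of the 5 kilobases to its left held 0. A group of 27 sequences followed between 74192293 and 74192372. On the right the minus-strand sequences went on at lower density for another 58.3 kb past the interval, with 1468 sequences. They ended at a strand change after position 74318297. That position was set by the split that leaves the most minus-strand sequences to its left and plus-strand sequences to its right between 74180001 and 74340000. To its left 7917 of 7921 sequences were minus (99.9%), and to its right 89 of 101 were plus (88.1%). Interval 1 thus takes in most of the denser, far portion of a minus-strand stretch, whose last 2 kb lie outside it on the left, and its right edge is 58.3 kb from the strand change. In steps of 10 kb to the left from the strand change, the minus strand held 369, 236, 225, 282, 188 and 196 sequences, then 623, 851, 799, 1101, 1300 and 1718, and 27 in the last step.

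Interval 2 contained its strand change. The plus strand held 3479 of its 3872 sequences (89.9%, 88.9–90.8%) and the minus strand 393. With the same split between 74440001 and 74500000, the strand changed after 74466490, 6.49 kb inside the interval. Left of that position lay 346 minus-strand and 16 plus-strand members, and right of it 3463 plus-strand and 47 minus-strand members. In contrast to interval 1, the dense part began at the strand change itself. The first kilobase to the right held 152 plus-strand sequences, the next held 298 and 379, and values between 191 and 376 followed up to the 12th kilobase, before falling to 104 and 14. The next 20-kb window to the right held 817 sequences and the one to the left 222, both below the 1000 of the rule. The plus-strand stretch continued at that lower density, with 497 sequences from 20 to 30 kb past the strand change.

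**Figure D1:**
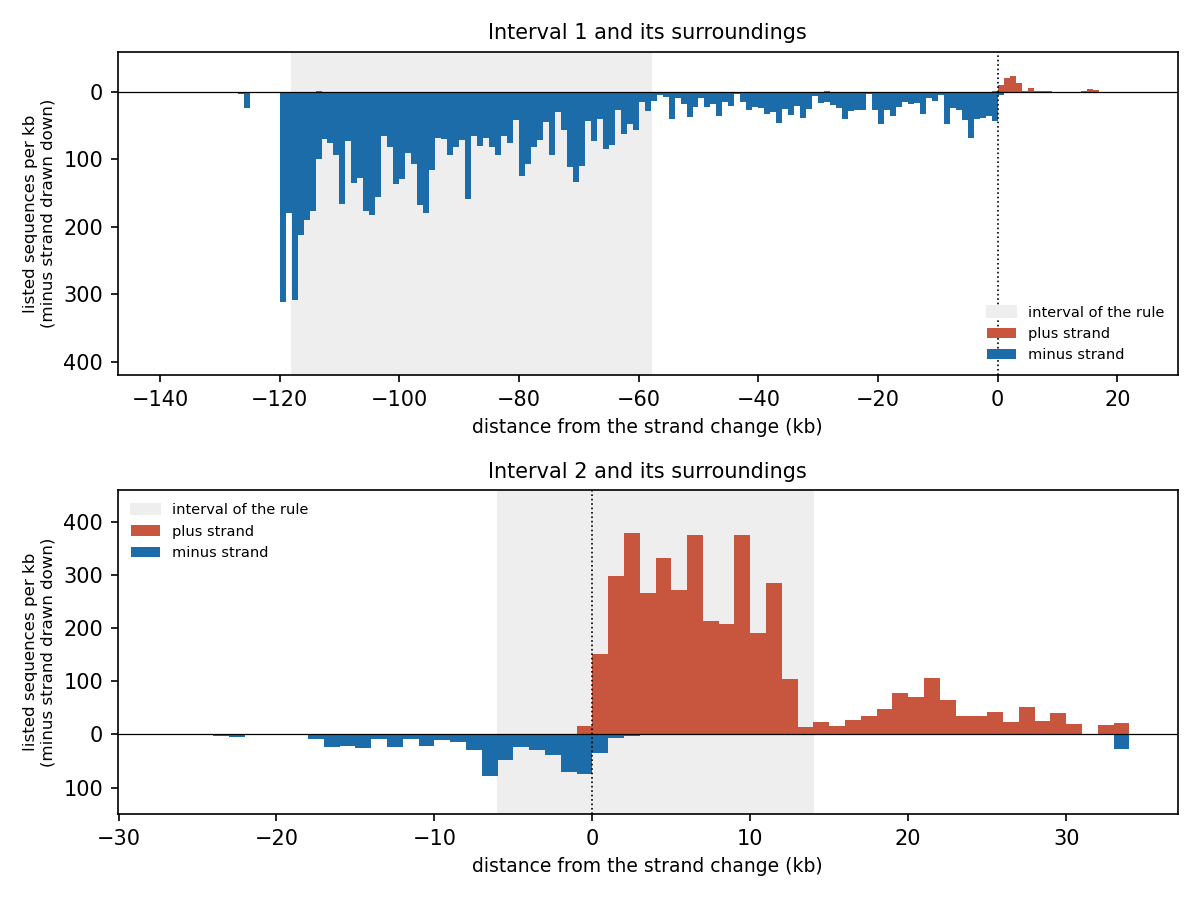
Listed sequences per kb on the plus strand (up) and the minus strand (down) against the distance in kb from the strand change of each locus, with the intervals shaded. Interval 1 (top) lies far to the left of its strand change and has minus-strand sequences with a single exception, whereas interval 2 (bottom) starts left of its strand change and rises to 379 plus-strand sequences per kb just right of it.

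The strand change of interval 2 fell beside the start of Mroh4, a gene of the maestro heat-like repeat family on the minus strand. Sequences were matched exactly to GENCODE M21 transcripts, which are built on GRCm38. Only the sequences of those transcripts and the order of their exons were used, and no coordinate was converted. Of the members of interval 2, 14 were sense and 1 was antisense to Mroh4, and these 15 were the only matches to any transcript (0.387%, 0.217–0.638%). In the 3583-nt transcript Mroh4-201, 3 of the sense matches lay in exon 1 and 10 in exon 3, all within the 5′ UTR, which ends before nt 550. The 14th matched another Mroh4 transcript. The exon 1 match whose 5′ end is at 74466739 begins at nt 45 of Mroh4-201, which puts nt 1 of that transcript at 74466783 on mm9. The strand change lay 293 nt inside the gene from there.

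Most minus-strand members lay within Mroh4 without matching its spliced RNA. At or left of the Mroh4 start lay 349 minus-strand members, of which 335 (95.99%) matched no spliced Mroh4 transcript. A match at nt 559 of Mroh4-201 had its 5′ end at 74459864, left of the interval. Fewer than 559 nt of this transcript thus lie between 74460001 and 74466783, and most of that stretch is outside its exons. The 95.99% was not compared with an exon share and is no sign that the members avoid the spliced RNA. Mroh4 as a whole was matched by 51 sense sequences, with 5′ ends from 74436595 to 74466739. On the other side of the start lay 3457 plus-strand members, outside the gene and on the opposite strand. A further 44 minus-strand members also lay to the right of the start, and 22 plus-strand members lay to its left. Neither GENCODE M21 nor RefSeq (GRCm38.p6) lists a gene between Mroh4 and Arc, the next gene, which encodes an activity-regulated cytoskeletal protein with a retrotransposon Gag-like fold. Arc was matched by 370 sense and 51 antisense sequences, with 5′ ends from 74499544 to 74502965, outside the interval. Of the 3479 plus-strand members, 3478 had no transcript match.

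Interval 1 had no match to a GENCODE M21 transcript in either orientation. Of its 5970 sequences 0 matched, which allows a share of up to 0.0503% when taken as 3 counts of the total (exact 95% upper limit 0.0618%). The nearest genes identified by their own sequences were the noncoding gene Gm32405 on the left, last matched at 73831241, and Adgrb1 on the right, first matched at 74359894. Adgrb1 encodes an adhesion G-protein-coupled receptor known for the uptake of dying cells. It had 14 sense and 3 antisense sequences. Between Gm32405 and Adgrb1 GENCODE M21 lists 2 genes, Gm7935 and Gm15387, both pseudogenes. RefSeq lists 7, adding the noncoding genes Gm32918, Gm19859, Gm41345, Gm32839 and Gm32168, whose places on mm9 were not determined here. RefSeq transcripts were not searched, so a match of interval 1 to any of these genes was not tested.

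A 5′ U was less frequent in interval 2 than in interval 1, and the strands of interval 2 differed from each other. Over distinct 5′ ends, 2526 of 3625 began with U in interval 1 (69.7%, 68.2–71.2%) and 1198 of 1910 in interval 2 (62.7%, 60.5–64.9%). The difference was 6.96 percentage points (95% interval 4.33 to 9.59; two-sided Fisher's exact test, adjusted p = 3.67e-07 over 2 comparisons). Ends of 1 locus share their source, so this p covers counting error only. Neither share was adjusted for the density of sequences, which the rule used. Within interval 2, U was carried by 60.9% of plus-strand ends (58.5–63.2%) and 75.6% of minus-strand ends (69.7–80.9%), a difference of 14.7 percentage points (1018 of 1672 against 180 of 238; two-sided Fisher's exact test, adjusted p = 3.21e-05 over 4 comparisons chosen after the values were seen). When minus strands alone were compared, the direction turned: 69.7% in interval 1 stood against 75.6% in interval 2, with an adjusted p of 0.115 in the same exact test. Across the whole list 72.01% of ends began with U.

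**Figure D2:**
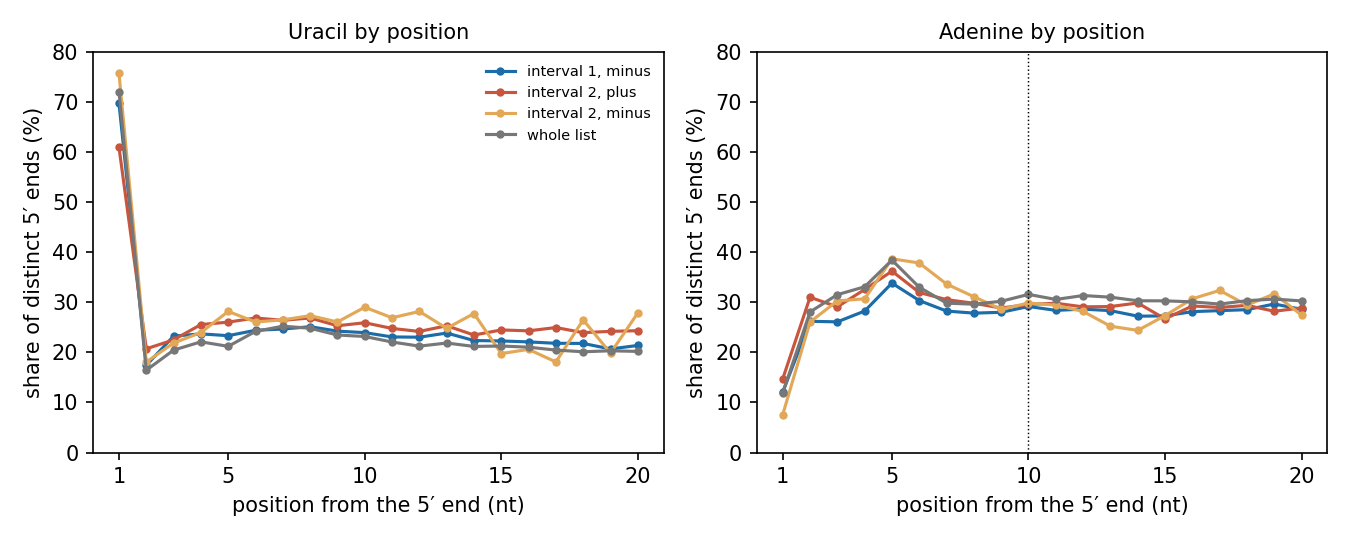
Share of distinct 5′ ends with uracil (left) and adenine (right) at positions 1 to 20, in percent, for each interval and strand and for the whole list. Uracil stands out at position 1, from 60.9% to 75.6%, and lies between 16.4% and 28.99% at positions 2 to 20, whereas adenine peaks at position 5 and not at position 10.

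The U share of covered bases differed little between the strands. Covered bases are those within listed sequences, 5′ ends included, so the U content of the full source sequence was not tested. Among the bases covered by listed sequences, U made up 25.3% on the minus strand of interval 1 (34571 bases), 26.3% on the plus strand of interval 2 (10731 bases) and 25.01% on its minus strand (2995 bases). The 5′ U share was 2.75, 2.32 and 3.02 times these values. Of the covered U positions, 28.8% were a listed 5′ end on the minus strand of interval 1, 36.1% on the plus strand of interval 2 and 24.03% on its minus strand. Of the covered positions holding another base, 3.31% to 4.95% were a listed end on the minus strand of interval 1. The range was 7.56% to 8.86% on the plus strand of interval 2 and 2.20% to 3.04% on its minus strand. The plus strand of interval 2 thus had more of both kinds of end, with the larger proportional excess at A, C and G. It was also the densest over the full length of its interval, with 83.6 ends per kb. The minus strands had 60.4 in interval 1 and 11.9 in interval 2. In interval 2, 346 of the 393 minus-strand members lay left of the strand change, 6.49 kb inside the interval. The 11.9 thus understates the density of that part and is not on a par with the 60.4.

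Fuller ends carried 5′ U more often in both intervals. In interval 1, U was carried by 60.5% of the 2217 ends with 1 sequence (58.4–62.5%), 82.03% of the 1174 ends with 2 or 3 (79.7–84.2%) and 94.9% of the 234 ends with 4 or more (91.2–97.3%). In interval 2 the shares were 51.1% of 972 ends (47.9–54.3%), 67.6% of 638 (63.8–71.2%) and 90.0% of 300 (86.03–93.2%). The intervals of successive classes did not overlap in either locus. In the whole list the same classes had 68.8%, 79.7% and 89.2%. Ends with a single sequence were therefore below the whole list in both loci, and the fullest ends of interval 1 were above it.

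**Figure D3:**
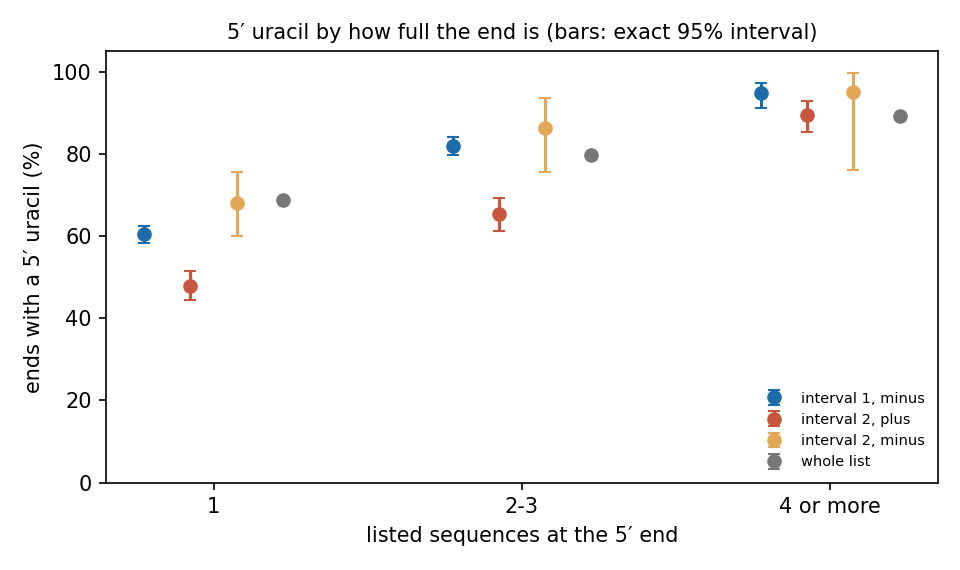
Share of distinct 5′ ends that begin with uracil (percent, with exact 95% intervals) by the number of listed sequences at the end, for each interval and strand and for the whole list. Every set rises from left to right, and the plus strand of interval 2 goes from 47.99% at ends with 1 sequence to 89.6% at ends with 4 or more.

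Along interval 1 the 5′ U share moved against density. In its 12 bins of 5 kb, the share of ends with U ran from 58.5% in the leftmost bin, which had the most ends (545), to 80.8% in the bin from 74240001 to 74245000, which had 214. The correlation of ends per bin with the U share was r = -0.70 (Spearman -0.65) over the 12 bins. These bins are neighbours in 1 pooled list and are not independent, so the value is a description. The rightmost bin, with 131 ends, did not follow the pattern, at 67.9%. The 5 steps of 10 kb nearest to the strand change, all outside the interval, had U at 82.6% to 86.2% of ends. In the leftmost bin of the interval 63.8 U ends and 45.2 other ends lay in each kb, against 17.8 and 8.4 in the rightmost bin. How deeply each bin was sampled and how many ends it gave cannot be told apart in a pooled list.

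A at position 10 did not stand out from positions 11 to 20 in either interval. It was carried by 29.1% of ends in interval 1 (27.7–30.6%) and 29.6% in interval 2 (27.5–31.7%), with a difference of -0.45 percentage points (95% interval -2.98 to 2.08; two-sided Fisher's exact test, adjusted p = 0.733). In the whole list 31.55% of ends carried A at position 10, above the 95% interval of interval 1 and inside that of interval 2. Across positions 11 to 20 the mean share of A was 28.3% on the minus strand of interval 1 and 28.9% on the plus strand of interval 2. A was most frequent at position 5, with 33.8% and 36.2% on these strands and 38.4% in the whole list.

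Pairs with the 10-nt overlap of slicing were present in interval 2, where both strands occur, near the Mroh4 start. An overlap of 10 nt was found for 15 pairs of opposite-strand 5′ ends, and the other overlaps from 1 to 20 nt had 6.11 pairs on average (2 to 12), a ratio of 2.46. An overlap of 5 nt came next, with 12 pairs. With counts this small the ratio was given no test. Of the 15 pairs, 11 lay within 1 kb of the Mroh4 start and 13 lay to the right of it, outside the gene. The strands met mainly there: past the strand change the minus strand held 34 sequences in the first kb and 7 in the next. Pairs of any overlap could thus lie mainly there, and places of other overlaps were not compared. Some pairs were neighbours, as at plus-strand ends 74466961, 74466962, 74466963 and 74466964, so the 15 are not all separate events. They took in 6.30% of the minus-strand ends of the interval and 0.897% of its plus-strand ends. The plus-strand end began with U in 11 pairs, the minus-strand end in 5, both did in 4 and neither did in 3. Among all ends of interval 2, U began 60.9% on the plus strand and 75.6% on the minus strand. Interval 1 had 0 pairs with a 10-nt overlap, and with 1 plus-strand sequence it could hardly have had any.

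The pair with the most sequences (6 over both ends), and the leftmost of the 3 pairs that follow with 5 each, are printed to show the overlap, with the first 10 nt of each sequence in capitals. The capitals of the partners are reverse complements of each other, as the overlap that chose the pairs requires.
Pair 1, chr15:74467106-74467134, plus strand, 5 sequences at the end: UGACUUGAGGaccugauggccaaagaagg
Pair 1, chr15:74467089-74467115, minus strand, 1 sequence at the end: CCUCAAGUCAgacuuggaggagcaagc
Pair 2, chr15:74466475-74466504, plus strand, 2 sequences at the end: UACUAUUGAAgcuucugaaggaaacccccc
Pair 2, chr15:74466457-74466484, minus strand, 3 sequences at the end: UUCAAUAGUAgauggcaggauccugagu

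In pair 1 the plus-strand sequence begins with U and its partner begins with C. In pair 2 both sequences begin with U. The A at position 10 opposite each 5′ U follows from the 10-nt overlap and is not a separate result. Pair 1 lies just outside Mroh4, upstream of its start, and pair 2 just inside the gene.

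**Figure D4:**
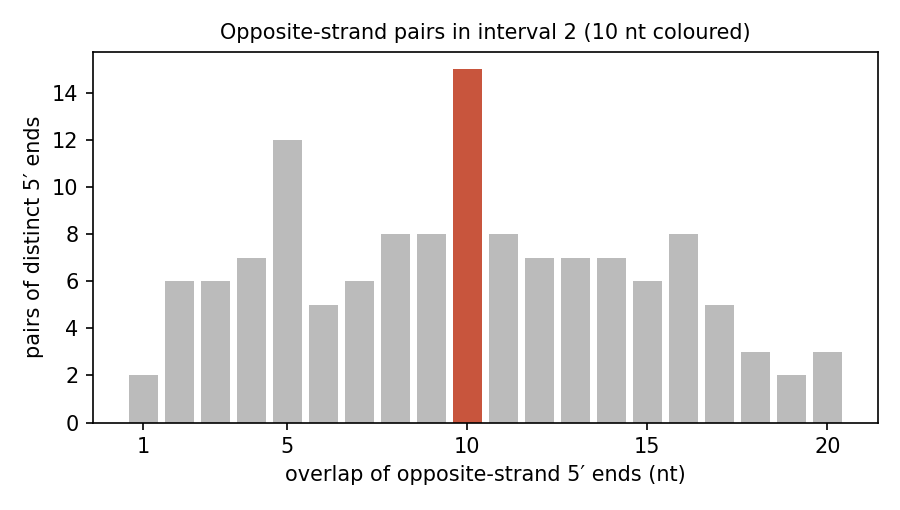
Number of pairs of distinct opposite-strand 5′ ends in interval 2 against their overlap from 1 to 20 nt. The overlap of 10 nt, coloured, has 15 pairs, and the other overlaps have 2 to 12.

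On none of the 3 strands measured were 5′ ends more frequent just behind a 3′ end than at larger distances. If precursors were cut end to end, a 5′ end would follow a 3′ end directly. In interval 1 this occurred 358 times on the minus strand, against a mean of 358.0 at distances of 2 to 20 nt. On the plus strand of interval 2 it occurred 327 times against a mean of 361 (327 to 392 at the other distances), and on its minus strand 9 times against a mean of 10.3. The base after a 3′ end, where known from other listed sequences, was U in 24.6% of 4067 cases in interval 1 (23.3–25.9%) and 24.8% of 2269 on the plus strand of interval 2 (23.004–26.6%). These shares lay within 2 percentage points of the U share of the covered bases on the same strands. On the minus strand of interval 2 the share was 28.03% of 264 cases (22.7–33.9%), against 25.01% of the covered bases, which lies inside that interval. Distinct ends were counted once each, and shortening of the 3′ end after cleavage would hide both marks.

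Length was alike in the intervals and close to the whole list. The mean was 27.1 nt in interval 1 (SD 1.33 nt over sequences), 27.1 nt in interval 2 (SD 1.49 nt) and 27.1 nt in the list (SD 1.31 nt), with a mode of 27 nt in each. Sequences of 26 to 28 nt made up 75.8% of interval 1 and 70.9% of interval 2, against 76.97% of the list. The plus strand of interval 2 was the more spread, with 70.2%. There the sequences of 26 to 28 nt began with U in 68.05% of cases, below the 75.6% of shorter and the 77.9% of longer ones, whereas on the minus strand of interval 1 the 3 classes had 76.01%, 78.5% and 78.6%.

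The first 20 nt of ends in both intervals were rare elsewhere in the list, and their listed sequences shared no 20-mer. The first 20 nt of an end occurred at another listed position for 5 ends of interval 1 (0.138%) and 2 ends of interval 2 (0.105%), against 0.843% of all ends. None of these occurred at 10 or more positions, and the highest was 4. Among 16845 distinct 20-mers of interval 1 and 7567 of interval 2, 0 were shared on the same strand and 0 in reverse complement. Each listed sequence has 1 position, so RNAs of multi-copy repeats in these intervals may not be represented. Low recurrence and the lack of shared 20-mers are thus partly built in. Listed sequences of either strand covered 57.7% of interval 1 and 65.7% of interval 2. No uncovered stretch reached 500 nt in either: the longest was 392 nt in interval 1 (74241181–74241572) and 408 nt in interval 2, at its right edge. The longest stretch without a break was 281 nt in interval 1 and 682 nt in interval 2 (74467550–74468231).

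Set among the 510 clusters of the list that were formed by the same rule (neighbouring 20-kb windows with 1000 or more sequences), the intervals lay far from each other in the number of distinct sequences per 5′ end, which counts 3′ variants. Interval 1 had 1.65 sequences per end, with 95 clusters lower and 414 higher, and interval 2 had 2.03, with 473 lower and 36 higher. Ends with a single sequence made up 61.2% in interval 1 and 50.9% in interval 2. The 5′ U share ran the other way: 464 clusters were lower than interval 1 and 294 were lower than interval 2, around a median of 61.7%. By sequences, which the rule used, interval 1 was the fullest and interval 2 the 4th of 28 clusters on chromosome 15. Interval 1 had 99.5 sequences per kb and interval 2 had 193.6, with 407 and 502 of the 510 clusters lower. Sequences per end was not adjusted for this density, which the rule used, so its ranks are not independent of the choice of intervals. The 5′ U share was not adjusted for density either.

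Most dense clusters matched transcripts, with a median of 87.6% of sequences matched in either orientation, whereas these 2 belonged to the 39 clusters with under 10% matched. Within those 39, no cluster had more sequences per kb than interval 2, and 14 had more than interval 1, a measure the rule used. In 5′ U, 11 of the 39 were higher than interval 1 and 31 were higher than interval 2, with a median of 67.4%. In strand, 4 of the 39 were more one-sided than interval 1 and 31 more than interval 2. For A at position 10 the intervals lay in the lower part, with 8 and 9 of the 39 below them and a median of 30.9%. Differences from other clusters were not tested, since clusters of 1 pooled list have no replicates.

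**Figure D5:**
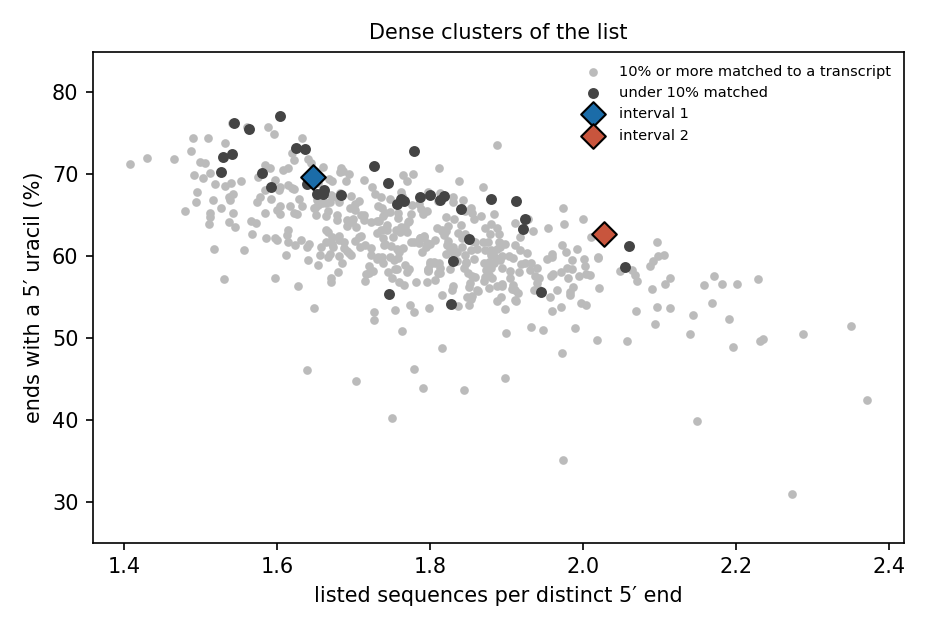
Share of distinct 5′ ends with uracil (percent) against listed sequences per distinct 5′ end for the 510 dense clusters, with the clusters matched to transcripts for under 10% of their sequences in dark grey and both intervals as diamonds. Interval 1 lies at 1.65 sequences per end and 69.7% uracil, and interval 2 at 2.03 and 62.7%.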

How the data were processed

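MILI-bound small RNAs of 14-day testes were placed on mm9 by the authors, per the submitters' processing notes. How reads were aligned, trimmed and filtered is not given in the sources used. The table the authors deposited has, per the file headers, sequence, chromosome, start, end and strand (1-based positions), with neither counts nor libraries. Its 4 libraries are pooled, so depth and replicate error are unknown and no genotype test was made. No sample column was left unused.

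The members and comparisons were chosen with earlier results of these data known. Genes named had 10 or more matching members or were the nearest on either side, and ends named were the 3 fullest of each interval and 2 of the fullest 10-nt pairs, with ties taken by position. Shares of bases count distinct 5′ ends, and strand and length count sequences. Transcript matches were exact over the whole sequence (GENCODE M21, 141767 transcripts). No promoter sequence was used. Shares carry exact Clopper-Pearson 95% intervals, and intervals of differences are normal approximations. Fisher's exact test was two-sided with Benjamini-Hochberg adjustment. The overlap, cluster and coverage steps were tested on simulated data. Alternatives were lengths of 24 to 31 nt, recurring ends left out, ends for sequences, edges extended by 10 kb, other backgrounds and 10-kb windows. Tests used scipy 1.17.1, tables pandas 2.3.3 and numpy 2.4.6, and figures matplotlib 3.10.9, under Python 3.11.15.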

Additional observations from a re-analysis of the deposited data

How the results depend on the processing

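No paired analysis was possible because the table has no library column, and no replicate could be left out for the same reason. Of 38 alternative values for 16 results, 24 stayed on the same side of the threshold with the same direction or, for values with no test, within their counting interval or 1.5 times of a count. The higher 5′ U share of interval 1 held with lengths limited to 24 to 31 nt, recurring ends left out, extended edges or sequences counted. The differences ran from 4.39 to 6.99 percentage points. The difference turned to -5.96 when only minus strands were compared, an alternative chosen after seeing the data. The difference in A at position 10, which did not pass the test, changed sign to 0.17 when sequences were counted in place of ends. With edges extended by 10 kb this difference was -1.67. Counting ends gave 3625 and 1910 members and a plus share of 87.5% in interval 2. Extending the edges by 10 kb gave a plus share of 87.1% there. The 10-nt ratio of interval 2 was 2.03 against overlaps of 5 to 15 nt. Against U at positions 11 to 20, the 5′ U ratio was 3.20 on the minus strand of interval 1 and 2.58 on the plus strand of interval 2. With 10-kb windows of 500 or more sequences (1164 clusters), 82.3% of clusters were lower in 5′ U than interval 1 and 43.2% than interval 2. In sequences per end 35.2% and 95.02% were lower, and 72.5% were less one-sided than interval 1. The cause of these shifts was not tested. The depth of the libraries is unknown, so a sequence missing from the list may have been present but not sampled.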
